A study of Rattus norvegicus with 24 samples.

Results

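The expression of 7 genes that encode subunits of the GABA-A receptor was examined in the frontal cortex of rats that had inhaled tungsten particles. The members were chosen by name, by a rule that used no measured value, although earlier results of these data were known. The members are Gabra2, Gabra3, Gabra4 and Gabra5 of the alpha class, Gabrb1 and Gabrb2 of the beta class, and Gabrd, the delta subunit. They are 7 of the 32883 reference genes listed in every table, and all 7 were among the 15644 genes with a level high enough to test. RNA-Seq was made from 24 libraries of adult male Sprague-Dawley rats, sampled the day after exposure, with 8 libraries per group. Control rats carry a labelled aerosol concentration of 0 mg/m3, Low rats 5 mg/m3 and High rats 80 mg/m3 of tungsten. The methods name this outbred stock, neither they nor the labels name a genetic change, and no source used here gives the length of the exposure. One label speaks of cell lines of the frontal cortex, whereas the methods describe tissue taken from the animals. Libraries are named here by the number in their title, from 49 to 72.

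GABA-A receptors are chloride channels that open when GABA binds, and they carry most fast inhibition in the cortex. Each channel is a ring of subunits drawn from several classes, usually alpha and beta subunits together with a gamma or a delta subunit. The GABA binding site lies between a beta and an alpha subunit, and the alpha subunit sets much of the pharmacology, including the response to benzodiazepines. Receptors with alpha 2 or alpha 3 are mostly found at synapses, while alpha 4 with delta, and alpha 5, are known for receptors outside the synapse that answer to ambient GABA and carry tonic inhibition.

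None of the 7 members passed the threshold (Benjamini-Hochberg adjusted p under 0.05, limma) in Low against Control, High against Control or Low against High. The largest difference was that of Gabrb2, which was 0.59 ± 0.37 higher (log2 scale, SE, 8 libraries per group) in Low than in High, with an adjusted p of 0.288. For Gabrb2 the sign of that difference turned with the deposited column that was read. On coverage, the lowest Control value came from library 49 and the lowest Low value from library 57 for Gabra2, Gabra3 and Gabrb2. Gabrd stood above its group's median in both libraries. On FPKM, library 49 was not the lowest Control library for Gabrb2.

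The value used is StringTie's coverage, the average number of reads over each base of a gene. It was divided by its sum over the reference genes of the library and multiplied by 1000000, and is called scaled coverage below. Because coverage is a depth per base, levels of different genes can be set side by side, although the place of Gabrb2 differed with the deposited column read. The sum over the reference genes ranged, in units of 1000000, from 1.67 to 2.82 in Control, from 1.64 to 3.07 in Low and from 1.77 to 2.67 in High, and the coverage of the members as deposited lay between 12.2 and 228 reads per base. The tables hold no read counts, so counting error is unknown. The Control and High tables list loci assembled from the reads beside the reference genes and the Low tables list 0, so the kind of table and the Low group cannot be told apart. Libraries 56 to 62 (1 Control, 6 Low, 0 High) carried a scaled coverage of 5449 to 8102 for mitochondrial tRNA genes of the minus strand, against 84.9 to 155 in the other 17. The cortical markers were present, with a summed scaled coverage of 750 to 1927 for 5 markers of excitatory neurons and 628 to 1272 for 7 markers of inhibitory neurons, while 3 markers of cerebellar granule cells summed to 0.746 at most. The 7 markers of striatal medium spiny neurons summed to 194 to 1199, and their part in the results was not tested. In bulk tissue, fewer cells of a type and less RNA per cell cannot be told apart.

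The promoters of 4 members are shown. Among the members with an entry, these genes form the 2 pairs with the highest Pearson r over all 24 libraries, group means removed. Other measures, given with the likenesses below, order the pairs otherwise. RefSeq entries of the GRCr8 build were matched for 6 of the 7 members, all but Gabra2, and each line gives the 250 bases before the gene's start, 5′ to 3′ on the gene's strand. Capitals mark GGGCGG on either strand, the GC box bound by SP1 family factors.
Gabra3, chrX:155543871-155544120, minus strand: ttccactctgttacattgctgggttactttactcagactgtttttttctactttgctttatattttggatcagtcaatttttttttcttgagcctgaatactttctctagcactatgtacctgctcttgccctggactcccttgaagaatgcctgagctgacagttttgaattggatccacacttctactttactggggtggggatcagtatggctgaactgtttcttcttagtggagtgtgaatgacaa
Gabrb2, chr10:27439543-27439792, plus strand: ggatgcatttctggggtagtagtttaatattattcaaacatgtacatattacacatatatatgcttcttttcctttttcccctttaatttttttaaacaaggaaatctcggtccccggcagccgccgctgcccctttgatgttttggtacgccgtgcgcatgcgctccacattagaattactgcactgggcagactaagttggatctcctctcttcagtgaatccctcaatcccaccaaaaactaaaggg
Gabra4, chr14:36944497-36944746, plus strand: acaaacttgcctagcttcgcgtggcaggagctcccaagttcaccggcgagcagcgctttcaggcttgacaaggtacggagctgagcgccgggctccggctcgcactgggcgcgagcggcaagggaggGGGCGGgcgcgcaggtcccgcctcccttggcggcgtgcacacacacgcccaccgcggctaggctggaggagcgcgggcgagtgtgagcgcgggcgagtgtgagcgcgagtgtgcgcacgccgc
Gabrd, chr5:171252710-171252959, minus strand: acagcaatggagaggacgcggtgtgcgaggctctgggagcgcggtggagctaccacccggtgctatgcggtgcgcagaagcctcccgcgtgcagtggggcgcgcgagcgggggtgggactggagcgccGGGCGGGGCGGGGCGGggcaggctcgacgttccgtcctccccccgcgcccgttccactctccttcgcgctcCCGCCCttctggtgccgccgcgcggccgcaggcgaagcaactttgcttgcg
The windows of Gabra3 and Gabrb2 had a GC content of 40.4% and 43.2%, those of Gabra4 and Gabrd 71.6% and 74.0%, and the median of all 33469 promoters in the table was 51.2%. The GC box was found once before Gabra4, 4 times before Gabrd, where 3 copies overlap in 1 run, and 0 times before Gabra3 and Gabrb2. It was present in 30.5% of all promoters. The EGR motif GCGNGGGCG, searched on both strands, matched 2 times before Gabra4 and is held by 4.29% of all promoters. Before Gabra5 the GC content was 76.4% with 1 GC box, and before Gabrb1 it was 49.2% with 0. The cyclic AMP response element TGACGTCA, searched on both strands and held by 1.59% of promoters, was found before 0 of the 6. A match is a run of letters in the window and was not tested as a binding site.

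The 7 members were expressed at moderate levels, between percentiles 59.1 and 84.1 of the mean scaled coverage of the tested genes. Over all 24 libraries the order by median was Gabra4 (62.2), Gabra2 (58.6), Gabrd (57.9), Gabra3 (46.3), Gabrb2 (39.2), Gabra5 (33.1) and Gabrb1 (20.8). With FPKM scaled in the same way Gabrb2 took place 4 (53.7), ahead of Gabra3 (47.2). On that column it took place 1 in Control (61.1), place 5 in Low (50.2) and place 2 in High (53.7). Neighbours at the top of the coverage order were not separated. Gabra4 was above Gabra2 in 12 of 24 libraries, Gabra2 above Gabrd in 13, Gabrd above Gabra3 in 19, Gabra3 above Gabrb2 in 18 and Gabrb2 above Gabra5 in 15. Gabra5 was above Gabrb1 in 23 of 24 libraries, the clearest step in the order. The coefficient of variation over the 24 libraries was 12.1% for Gabra4, 14.3% for Gabrb1, 17.2% for Gabrd, 19.4% for Gabra3, 20.7% for Gabra5, 21.1% for Gabra2 and 40.5% for Gabrb2. Gabrb2 was therefore the least even of the members between libraries.

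**Figure D1:**
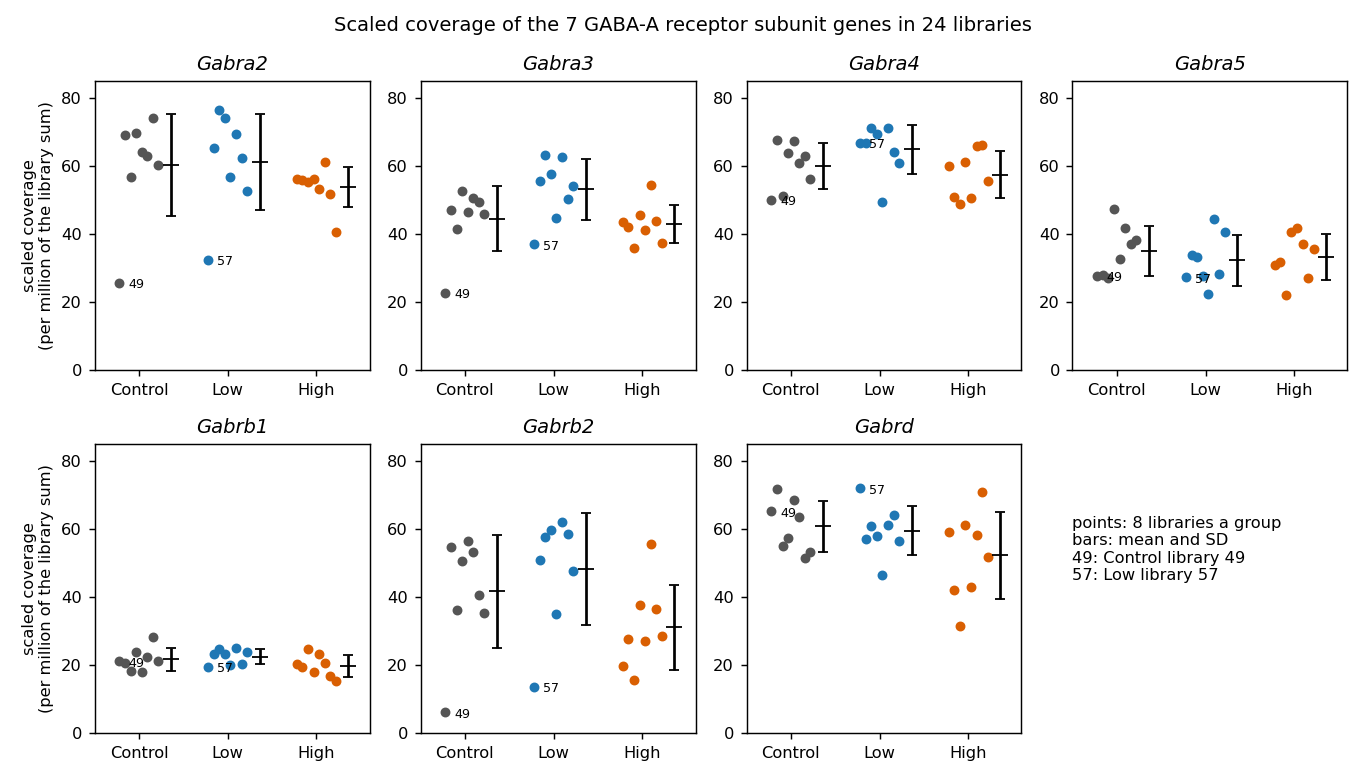
Scaled coverage (vertical axis, scaled to a library sum of 1000000) of each member in the Control, Low and High groups. Points are libraries, bars show mean and SD of 8 libraries, and library 49 (Control) and library 57 (Low) are marked. The groups overlap for every member, and library 49 lies apart from the other Control libraries for Gabra2 (25.7), Gabra3 (22.7) and Gabrb2 (6.11).

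Of the synaptic alpha subunits, Gabra2 (ENSRNOG00000002349) is listed at 39661968 to 39798302 on the plus strand of chromosome 14. All positions are those of the deposited tables. The submitters' notes name the build mRatBN7.2, but genes in the tables run to base 282724300 of chromosome 1, past the last gene end of 270492571 in the GRCr8 table, so the build of these positions is not settled. The scaled coverage of Gabra2 was 25.7 at the lowest, 63.5 at the median and 74.1 at the highest in Control, 32.5, 63.8 and 76.6 in Low, and 40.7, 55.6 and 61.1 in High. Control and Low covered similar ranges. The High range lay within both, and 0 of 8 High values were above the Control median. Gabra2 differed by 0.04 ± 0.18 (log2, SE) in Low against Control (adjusted p = 0.931), by -0.11 ± 0.18 in High against Control (adjusted p = 0.999) and by 0.15 ± 0.18 in Low against High (adjusted p = 0.589).

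Gabra3 (ENSRNOG00000056558, chromosome X, 152414615 to 152642531, minus strand) is the other synaptic alpha subunit of the set. Its scaled coverage was 22.7 at the lowest, 46.9 at the median and 52.6 at the highest in Control, 37.1, 54.9 and 63.4 in Low, and 35.8, 42.8 and 54.4 in High. Low libraries were generally high, with 6 of 8 above the Control median and 7 of 8 above the High median, but the groups overlapped. The difference was 0.27 ± 0.14 in Low against Control (95% interval -0.01 to 0.55, adjusted p = 0.291) and 0.29 ± 0.14 in Low against High (0.01 to 0.57, unadjusted p = 0.0401, adjusted p = 0.153). High differed from Control by -0.03 ± 0.14 (adjusted p = 0.999). Without Control library 49, which enters the fit through the shared spread, the difference of Low against High had an adjusted p of 0.0345.

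Of the subunits known for tonic inhibition, Gabra4 (ENSRNOG00000002336, chromosome 14, 39154529 to 39231695, plus strand) was the most even. Its scaled coverage was 50.2 at the lowest, 61.9 at the median and 67.6 at the highest in Control, 49.5, 66.7 and 71.1 in Low, and 48.8, 57.9 and 66.2 in High. In Low, 7 of 8 libraries were above the High median, and the lowest Low value, of library 61, was below the Control minimum. The difference was 0.11 ± 0.08 in Low against Control (adjusted p = 0.502), -0.06 ± 0.08 in High against Control (adjusted p = 0.999) and 0.18 ± 0.08 in Low against High (95% interval 0.003 to 0.35, unadjusted p = 0.0466, adjusted p = 0.165). Without library 61 the last value was 0.23 with an adjusted p of 0.0453, so the call turned on that library.

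Gabrd (ENSRNOG00000016385, chromosome 5, 172797450 to 172809353, minus strand), the partner of alpha 4 in many extrasynaptic receptors of the forebrain, had a scaled coverage of 51.4 at the lowest, 60.4 at the median and 71.7 at the highest in Control. The values were 46.5, 59.3 and 71.9 in Low and 31.5, 54.9 and 70.8 in High. The High group was the widest (SD 12.7, against 7.56 in Control and 7.25 in Low), and 3 of its libraries, 66, 67 and 69, were below the lowest value of both other groups. Library 67, the lowest for Gabrd (31.5) and the lowest High library for Gabrb2 (15.7), had the lowest summed excitatory markers of all 24 libraries (750). The striatal markers summed to 1199, 740 and 869 in libraries 65, 66 and 67, against 388 at most in the other 5 High libraries. Gabrd was at 59.0 in library 65 and at 42.9 in library 69 (striatal sum 388). Blood markers were the highest of High in libraries 66, 67 and 69 (305, 302 and 407, against 238 at most). So were those of oligodendrocyte precursors (44.5, 46.1 and 40.4, against 36.6 at most) and choroid plexus (13.4, 29.3 and 13.2, against 11.7 at most). No other marker list set these 3 libraries apart, and the part of any list in these values was not tested. Gabrd differed by -0.03 ± 0.12 in Low against Control (adjusted p = 0.921), by -0.24 ± 0.12 in High against Control (95% interval -0.50 to 0.01, unadjusted p = 0.0581, adjusted p = 0.999) and by 0.22 ± 0.12 in Low against High (adjusted p = 0.250). Without library 67 Gabrd differed by -0.15 in High against Control and by 0.12 in Low against High, and neither passed the threshold.

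Gabra5 (ENSRNOG00000010803, chromosome 1, 112833944 to 112947451, minus strand) is best known from the hippocampus and from deep cortical layers. Its scaled coverage was 27.2 at the lowest, 35.0 at the median and 47.4 at the highest in Control, 22.5, 30.7 and 44.5 in Low, and 22.1, 33.6 and 41.7 in High. On coverage it was the only member with a Low mean (32.3 ± 7.40, SD, n = 8) below the mean of High (33.3 ± 6.70). With scaled FPKM that member was instead Gabrb2 (44.6 in Low, 55.7 in High), and Gabra5 had means of 37.8 in Low and 35.4 in High. On coverage Gabra5 differed by -0.12 ± 0.14 in Low against Control (adjusted p = 0.695), -0.07 ± 0.14 in High against Control (adjusted p = 0.999) and -0.05 ± 0.14 in Low against High (adjusted p = 0.840).

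Of the beta subunits, Gabrb1 (ENSRNOG00000002327, chromosome 14, 38643385 to 39112600, minus strand) was the lowest member. It lies in the tables beside Gabra4 and on the opposite strand, in a cluster that also holds Gabra2. Its scaled coverage was 17.9 at the lowest, 21.0 at the median and 28.3 at the highest in Control, 19.4, 23.1 and 25.1 in Low, and 15.2, 19.8 and 24.6 in High. In Low, 7 of 8 libraries were above the High median. The differences were 0.06 ± 0.10 in Low against Control (adjusted p = 0.781), -0.13 ± 0.10 in High against Control (adjusted p = 0.999) and 0.18 ± 0.10 in Low against High (adjusted p = 0.201).

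Gabrb2 (ENSRNOG00000003680, chromosome 10, 27973681 to 28187565, plus strand) encodes a beta subunit common in synaptic receptors of the adult forebrain. Its scaled coverage was 6.11 at the lowest, 45.6 at the median and 56.4 at the highest in Control, 13.6, 54.3 and 61.9 in Low, and 15.7, 28.0 and 55.6 in High. Most Low values were high and most High values low, with 7 of 8 Low libraries above the High median and 7 of 8 High libraries below the Control median, yet each group also held values of the opposite end. The differences were 0.29 ± 0.37 in Low against Control (95% interval -0.47 to 1.05, adjusted p = 0.709), -0.30 ± 0.37 in High against Control (-1.06 to 0.46, adjusted p = 0.999) and 0.59 ± 0.37 in Low against High (-0.17 to 1.35, adjusted p = 0.288). These are the widest intervals of the 7 members, and they reach past 1 log2 unit in each of the 3 comparisons.

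**Figure D2:**
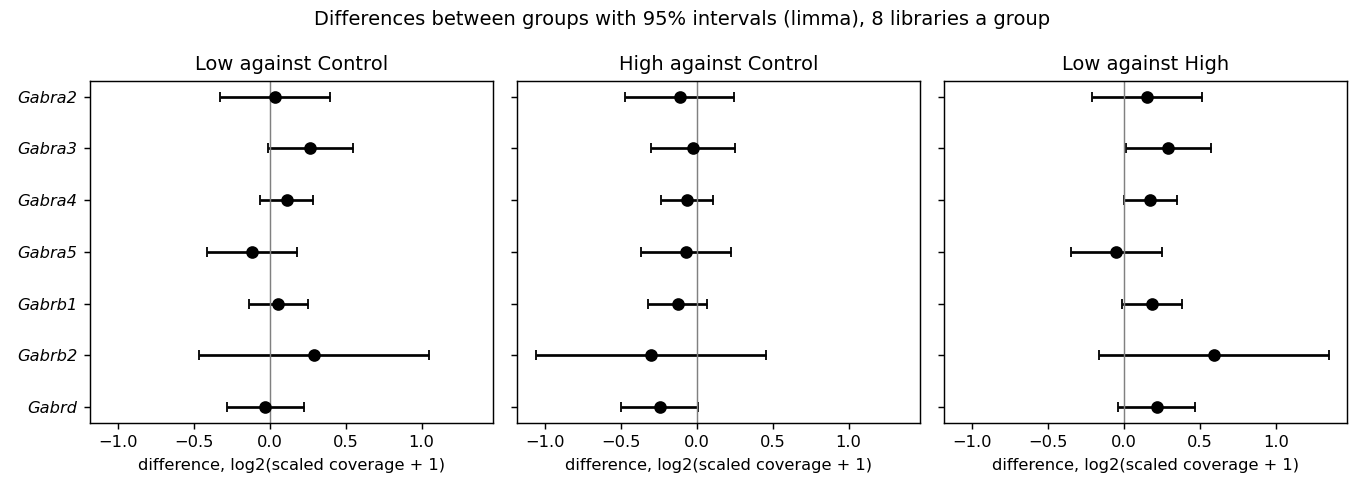
Difference between group means on the log2(scaled coverage + 1) scale (horizontal axis) with the 95% interval from limma, for each member and comparison, 8 libraries per group. Intervals of Gabra3 and Gabra4 in Low against High start just above 0 (0.01 and 0.003), and neither passed the threshold after adjustment over 15644 genes.

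Counted together, 0 of 7 members passed the threshold in Low against Control, where 6.11% of all tested genes did, 0 of 7 in High against Control, where 0% did (0 of 15644 by limma and by Wilcoxon tests, 330 genes or 2.11% at an unadjusted p under 0.05 by limma, 887 by Wilcoxon tests), and 0 of 7 in Low against High, where 11.7% did. At an unadjusted p under 0.05 by limma the counts were 0, 0 and 2 of 7, beside 18.4%, 2.11% and 29.1% of all tested genes. By Wilcoxon tests they were 0, 1 and 3 of 7, beside 17.4%, 5.67% and 33.2%. Groups failed to overlap for 0 members in each comparison, beside 1.53%, 0.00639% and 2.26% of all genes. The signs were read beside those of all genes. In Low against Control 5 of 7 members were above 0, beside 66.5% of all genes, with a median of 0.06 for members and 0.06 for all genes. In High against Control 0 of 7 were above 0, beside 36.0%, with medians of -0.11 and -0.03. In Low against High 6 of 7 were above 0, beside 69.9%, with medians of 0.18 and 0.09. The 3 comparisons share their libraries pairwise, so these counts are not independent of each other. The signs depended on the scaling. Without it the median of all genes was 0.14 in High against Control and -0.11 in Low against High, with 5 of 7 and 3 of 7 members above 0, and relative to all genes the median member was at -0.08 and 0.09, beside -0.08 and 0.09 with scaling.

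Single libraries stood apart in the receptor genes. In Control library 49, Gabrb2 was at 12.1% of the median of the other 7 Control libraries, Gabra2 at 40.1% and Gabra3 at 48.2%. In the same library Gabra4 was at 79.5%, Gabra5 at 74.6%, Gabrb1 at 100% and Gabrd at 114%. In Low library 57, Gabrb2 was at 23.6% of the median of the other 7 Low libraries, Gabra2 at 49.9%, Gabra3 at 66.6%, Gabra5 at 82.0%, Gabrb1 at 83.8%, Gabra4 at 100% and Gabrd at 124%. On scaled coverage the order of the members was thus similar in both libraries, with Gabrb2 the lowest and Gabrd the highest. This did not hold for FPKM scaled to its own sum. On that column Gabrb2 of library 49 (42.2) was not the lowest of Control, while Gabra2 (24.3) and Gabra3 (23.2) were. The deviation of Gabrb2 in scaled coverage (on the log2 scale) was undercut by 0.0639% of the tested genes in library 49 and by 0.639% in library 57. These 2 libraries differed from their groups in many genes, since 9.92% and 6.99% of the tested genes were more than 1 log2 unit below the median of the other libraries, beside 0.217% to 3.41% in the remaining 22. Their summed excitatory markers were 1007 and 1204, the lowest of their groups. Their inhibitory markers were 998 and 1272, the highest of their groups. The immediate early genes described below (257 and 338) and markers of oligodendrocyte precursors, microglia and endothelium were also the lowest of their groups in both libraries. Those of oligodendrocytes, thalamus and blood were neither lowest nor highest in either. Within its group, library 49 alone was lowest for astrocytes and highest for choroid plexus, and library 57 alone was lowest for striatal markers. The barely expressed cerebellar granule cell markers were lowest of Control in library 49 (0.224) and highest of Low in library 57 (0.681). The part of any list in these values was not tested.

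**Figure D3:**
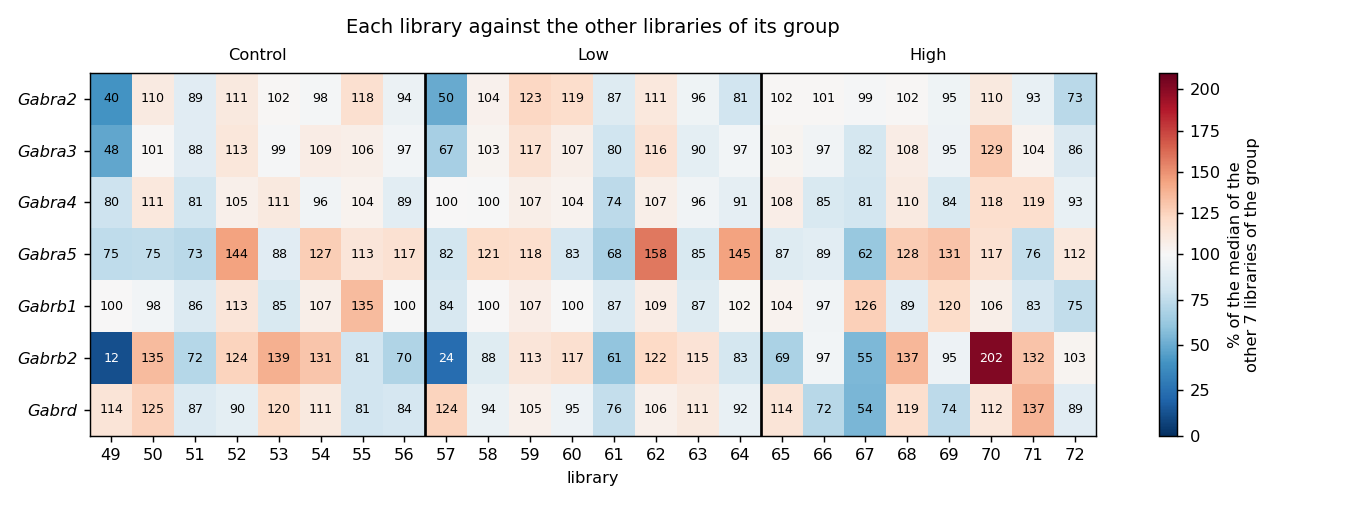
Scaled coverage of each member (rows) in each library (columns) as a percent of the median of the other 7 libraries of its group; white is 100%, blue lower and red higher. On scaled coverage, libraries 49 and 57 share low Gabrb2 (12.1% and 23.6%), Gabra2 and Gabra3 beside Gabrd above 100%. On scaled FPKM, Gabrb2 of library 49 (42.2) was not the lowest of Control. In High library 67 both Gabrb2 (55.1%) and Gabrd (54.2%) are low.

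The comparisons were repeated without libraries 49 and 57, which were picked after their values were seen. The Control mean of Gabrb2 was then 46.7 and its Low mean 53.0 (n = 7 each), with a High mean of 31.0 (n = 8). In Low against High, 3 members then passed the threshold, with Gabra2 higher by 0.27 (adjusted p = 0.0192), Gabra3 by 0.36 (adjusted p = 0.00231) and Gabrb2 by 0.83 (adjusted p = 0.00442). These 3 were the members furthest below their group's median in both left-out libraries. The choice of libraries therefore favoured these calls and gives them no support. High library 72, which stood apart for Gabra2 (40.7), was kept. With scaled FPKM and all libraries Gabrb2 was lower in Low than in High (-0.39). Without libraries 49 and 57 the share of all tested genes past the threshold was 28.8%, against 11.7% with all libraries. In Low against Control and in High against Control 0 of 7 members passed without the 2 libraries, beside 4.32% and 2.49% of all genes. Leaving out only library 49 gave 1 member past the threshold in Low against High, Gabra3 (adjusted p = 0.0345), and leaving out only library 57 gave 0. The immediate early genes, which follow neuronal activity, also differed between Low and High. With all libraries 5 of 5 (Fos, Egr1, Arc, Npas4 and Junb) passed as higher in Low (limma), where 5.30% of all genes did. With libraries 56 to 62 as a covariate Fos did not pass (adjusted p = 0.0963), by Wilcoxon tests it did not either (adjusted p = 0.0641), and outside those libraries neither Fos (adjusted p = 0.0882) nor Egr1 (adjusted p = 0.0693) passed (limma). Their summed scaled coverage ran from 338 to 837 in Low and from 117 to 478 in High, and their relation to the receptor genes was not tested.

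For Gabrb2 the deposited columns did not give the same answer. In each library the most common ratio of coverage to FPKM among well-covered reference genes was found. The share of genes at that ratio was not measured. The ratio of each member was expressed relative to it. This relative ratio was within 2% of 1 in all 24 libraries for Gabra4 and Gabrd, and in no library for Gabra3 and Gabra5. For Gabrb2 it was within 2% of 1 in all 8 Low libraries and in 2 of 8 Control libraries, with a range of 0.137 to 1 in Control (median 0.705) and 0.384 to 0.666 in High (median 0.499). Scaled to its own sum, the FPKM of Gabrb2 was 33.2 at the lowest, 61.1 at the median and 82.7 at the highest in Control, 12.6, 50.2 and 57.2 in Low, and 38.9, 53.7 and 79.3 in High. On that column library 49 (42.2) was not the lowest Control library, whereas library 57 (12.6) remained the lowest Low library. The difference of Low against Control was then -0.40 and that of Low against High -0.39, both opposite in sign to those of coverage and neither past the threshold. For Gabra5 the ratio was 0.749 to 0.891 in Low (median 0.783), lower than in Control (0.823 to 0.951, median 0.910) and High (0.816 to 0.949, median 0.901), with overlapping ranges. With scaled FPKM Gabra5 differed by 0.05 in Low against Control, in place of -0.12.

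**Figure D4:**
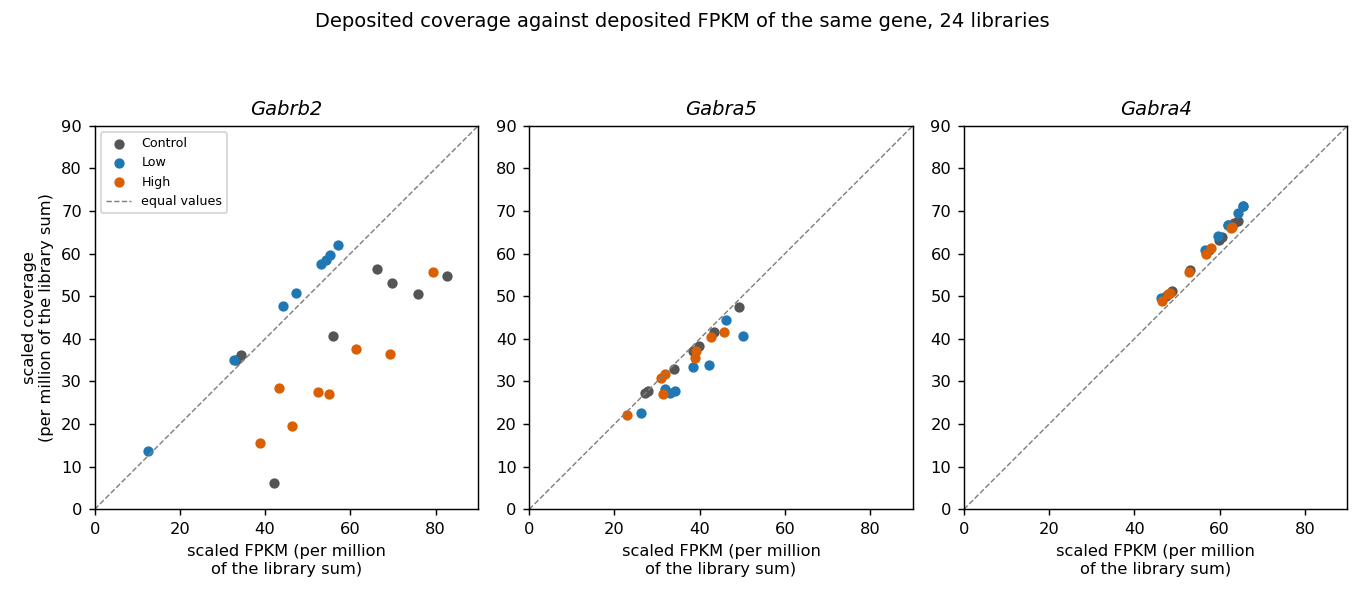
Scaled coverage (vertical axis) against scaled FPKM (horizontal axis), each scaled to a sum of 1000000 over reference genes, for Gabrb2, Gabra5 and Gabra4 in 24 libraries; the dashed line marks equal values. For Gabrb2 the Low libraries lie on a line of one slope and all 8 High libraries fall below it, while Gabra4 keeps one slope in every group.

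The assembled loci, which the 16 Control and High tables list, give the span over which reads were joined to each gene. At Gabrb2 the overlapping locus reached past the 3′ end of the reference gene in 15 of 16 tables, by 5165 bases in 10 of them and by up to 5663 in the others, and Control library 56 was the exception. The coverage of that locus was 1.22 to 4.11 times that of the reference entry in these 15 tables, and 4.11 was the value of library 49. At Gabra2 the locus reached 7612 to 9701 bases past the end in 12 of 16 tables. At Gabra3, Gabra4, Gabra5 and Gabrd it did so in 0 tables, and at Gabrb1 in 2. When each gene's reference entry was replaced by its assembled locus in High against Control, Gabrb2 differed by -0.16 in place of -0.30, Gabra2 by -0.19, and 0 of 7 members and 0 genes in all passed the threshold. The same could not be done for Low, whose tables hold 0 such loci.

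Members were compared with each other across the 24 libraries, on log2(scaled coverage + 1) after the mean of each group's 8 libraries was subtracted. Gabra3 and Gabrb2 had a Pearson r of 0.93 (Spearman rho 0.82), which was 0.77 without libraries 49 and 57. Gabra4 and Gabrd had an r of 0.69 (rho 0.66), which was 0.78 without them. Many other genes were more alike than these pairs. Among 13159 named genes, Gabrb2 ranked 271 by r with Gabra3, and Gabra3 ranked 421 with Gabrb2. Gabrd ranked 903 with Gabra4, and Gabra4 ranked 359 with Gabrd. The promoters of Gabra3, Gabrb2, Gabra4 and Gabrd are the ones printed. The genes were also alike across the 2 pairs, with an r of 0.62 (rho 0.72) for Gabra3 and Gabra4 and of 0.56 (rho 0.75) for Gabra4 and Gabrb2, which were 0.76 and 0.73 without libraries 49 and 57, so by rho both stood above Gabra4 and Gabrd. Gabra2 and Gabra3 had an r of 0.91 (rho 0.87), which was 0.71 without the 2 libraries, and Gabrb1 and Gabrd an r of -0.50 (rho -0.41). Differences between group means are thus not part of these values. The libraries share a scaling, and the values are descriptions and carry no p. The named genes most like each member by r were Grm5 (0.98) and Pdzd2 (0.97) for Gabra2, Camsap2 (0.98) and Abr (0.97) for Gabra3, Arl8b (0.93) and Nkiras1 (0.92) for Gabra4, Doc2a (0.85) and Fam131b (0.83) for Gabra5, Rab36 (0.87) and Pcdh19 (0.84) for Gabrb1, Ttll7 (0.99) and Cacnb4 (0.99) for Gabrb2, and Rgs7 (0.92) and Nog (0.92) for Gabrd. For Gabrb2 the r with Ttll7 was 0.98 without libraries 49 and 57, so the likeness did not rest on them.

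The other genes of GABA signalling were examined on the same scale. Of 12 other GABA-A subunit genes, 5 were tested and 0 passed in any comparison. The median difference of the 5 was 0.14 in Low against Control, -0.14 in High against Control and 0.26 in Low against High, beside 0.06, -0.03 and 0.09 over all genes.

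Of 20 genes for receptor assembly, trafficking and the inhibitory synapse scaffold, 0 passed in Low against Control or in High against Control, and 3 rose in Low against High with 0 lower, where 5.30% of all genes were called higher. Among them were Nsf, an ATPase of membrane fusion that acts on receptor surface levels (505 ± 54.5 against 409 ± 41.3, log2 difference 0.30 ± 0.08, adjusted p = 0.0128), and Plcl2, a binding protein of beta subunits (0.29 ± 0.08, adjusted p = 0.0196). The list median in Low against High was 0.15, beside 0.09 over all genes. Of 5 genes for chloride transport and its control, 2 rose in Low against High, Slc12a2, which loads chloride into cells (46.8 ± 7.47 against 36.8 ± 5.53, 0.34 ± 0.11, adjusted p = 0.0429), and Stk39, a kinase that activates it (0.27 ± 0.08, adjusted p = 0.0343). Slc12a5, which extrudes chloride from mature neurons, had 77.3 ± 16.7 in Low and 69.5 ± 12.6 in High (adjusted p = 0.632).

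Of 9 genes for GABA synthesis, vesicle loading, uptake and breakdown, 8 were tested and 0 passed in any comparison. Abat, which degrades GABA, had a scaled coverage of 117 ± 28.9 in Control, 113 ± 23.7 in the Low and 119 ± 27.9 in the High group (SD, n = 8 each). Of the GABA-B list 2 of 5 genes were found under their symbols and 0 passed. Gabbr1 had 315 ± 36.3, 290 ± 39.7 and 309 ± 17.4, and Gabbr2 had 129 ± 25.9, 146 ± 19.1 and 117 ± 34.0, with an unadjusted p of 0.0361 and an adjusted p of 0.144 in Low against High. The kind of table and the excess of libraries 56 to 62 in the Low group apply to the pathway genes that rose in Low against High as well. With those libraries as a covariate none of Nsf, Plcl2, Slc12a2 and Stk39 passed (adjusted p = 0.179 to 0.312), and 2.26% of all genes did in place of 11.7%. Without scaling none of these 4 passed either (adjusted p = 0.879 to 0.947). Slc12a2 did not pass when 1 of libraries 50, 58, 59, 60, 62, 63, 65, 67, 68, 69, 71 or 72 was left out (adjusted p = 0.0504 to 0.0909), and Stk39 did not when 1 of 58, 59, 62 to 67 or 69 was (adjusted p = 0.0516 to 0.0803). With median-of-ratios scaling the adjusted p was 0.0523 for Slc12a2, 0.193 for Stk39 and 0.124 for Plcl2, and with no filter on low values 0.108, 0.0899 and 0.0557. By Wilcoxon tests it was 0.0527 for Slc12a2 and 0.0725 for Stk39, with scaled FPKM 0.0552 and 0.0623, and for Stk39 with only the 2 groups compared 0.0518.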

How the data were processed

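Frontal cortex RNA of 24 rats was sequenced, in Control, Low and High groups of 8 taken from the sample titles. Libraries were stranded and poly(A)-selected. Per the labels, the submitters' processing notes name FastQC, Trimmomatic, TopHat2 and StringTie and the build mRatBN7.2, without versions. The authors deposited 1 gene table per library, whose coverage column is a signal, the average number of reads over the bases of a gene, without any scaling. The deposited FPKM is StringTie's value per kilobase and sequencing depth. The deposited TPM sums to 1000000 over all rows in Low tables, while in Control and High tables the reference genes come on top of assembled loci, and that deposited column was treated there as a score. Tables hold no counts, so no count model was used.

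Coverage was divided by its sum over the 32883 reference genes and multiplied by 1000000, entries with the same identifier were summed, and 15644 genes whose mean was at least 1 were tested with limma 3.58.1 (trend, robust) in R 4.3.3 on log2(value + 1), all 3 groups in 1 fit, two-sided. This scale understates differences of low genes. P-values were adjusted by Benjamini-Hochberg over all tested genes, with a threshold of 0.05. Whether replicates beyond the rat were pooled or repeated is not given, and p-values measure the spread between libraries. The members, gene lists and alternatives were chosen with earlier results of these data known. Named genes are the 7 members, in each list up to 4 genes past the threshold with the largest difference or otherwise the 2 with the highest mean, and the 2 genes most correlated with each member. Some genes of the lists are not reported here by name, while counts and medians over the lists include them. Alternatives were another pseudocount (0.1), no filter, a minimum mean of 5, other scalings, the FPKM and TPM columns, only the groups compared, exact Wilcoxon tests, libraries 56 to 62 as a covariate and each library left out. Added after seeing the data were scaled FPKM, both libraries 49 and 57 left out, libraries inside or outside 56 to 62, and assembled loci. limma and the Wilcoxon tests were tested on simulated data. Promoters are from RefSeq (GRCr8). Python 3.11.15, numpy 2.4.6, pandas 2.3.3 and matplotlib 3.10.9 were used.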

Additional observations from a re-analysis of the deposited data

Results flagged for a closer look

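In groups of 8, a library was picked out where its gap to the nearest other library exceeded Dixon's 95% critical value for the range. This held in 4 of the 21 combinations of member and group, where chance gives about 1 in 20, or 1.05. The members share their libraries, so the combinations are not independent, and library 49 was counted for more than 1 member. Control library 49 was picked out for Gabra2 (25.7, the others 56.7 to 74.1), for Gabra3 (22.7, the others 41.6 to 52.6) and for Gabrb2 (6.11, the others 35.1 to 56.4). High library 72 was picked out for Gabra2 (40.7, the others 51.7 to 61.1). All values are scaled coverage.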

How the results depend on the processing

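No paired analysis was possible because the library numbers 49 to 72 are not shared between groups. Members past the threshold stayed at 0 in High against Control under every alternative run, and in Low against Control under every one but the FPKM column as deposited (6). In Low against High 6 passed with that column, 3 without libraries 49 and 57 together, 0 to 1 when single libraries were left out, and 0 otherwise. With FPKM as deposited 12393 and 12410 genes passed in Low against Control and Low against High, and with TPM 3952 and 3927.

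In Low against Control the number of all genes past the threshold was 956, and 556 with a minimum mean of 5, 628 without scaling, 1688 with sums free of mitochondrial genes, 566 with only the groups compared, 360 with Wilcoxon tests, 361 with libraries 56 to 62 as a covariate, 1765 with scaled FPKM, 344 outside libraries 56 to 62, 150 within them (1 Control library, assumed to vary like the others) and 676 to 1224 with single libraries left out. In High against Control it was 0, and 390 without libraries 49 and 57. In Low against High it was 1828, and 1192 with a minimum mean of 5, 1133 without scaling, 1113 with Wilcoxon tests, 354 with the covariate and 354 outside libraries 56 to 62, 4514 without libraries 49 and 57, and 1266 to 2676 with single libraries left out. The causes were not tested.

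Signs that turned belonged to differences that were not past the threshold with scaled coverage. Past it after turning were, with FPKM as deposited, Gabra5 in Low against Control (adjusted p = 3.09e-04) and Low against High (adjusted p = 3.21e-04) and Gabrd in Low against Control (adjusted p = 0.00127). In Low against Control, Gabra2 turned to -0.0202 with median-of-ratios scaling, -0.00565 with the covariate, -0.00442 without libraries 49 and 57, -0.00861 outside libraries 56 to 62 and -2.79e-04 within them, Gabra5 to 0.56 (FPKM), 0.17 (TPM), 0.0471 (scaled FPKM) and 0.00318 (outside 56 to 62), Gabrb1 to -0.0748 (scaled FPKM), Gabrb2 to -0.28 (TPM) and -0.40 (scaled FPKM), and Gabrd to 0.47 (FPKM), 0.0662 (TPM), 0.0307 (covariate) and 0.14 (within 56 to 62). In High against Control, no scaling gave 0.0690, 0.16, 0.12, 0.11 and 0.0501 for Gabra2, Gabra3, Gabra4, Gabra5 and Gabrb1. Gabra3 turned to 0.0117 (median of ratios), 0.0193 (FPKM) and 0.0204 (TPM), Gabra5 to 0.00185 (FPKM) and 0.00151 (TPM), and Gabrb2 to 0.0360 (FPKM) and 0.0377 (TPM). In Low against High, no scaling gave -0.0652, -0.0398 and -0.0248 for Gabra2, Gabra4 and Gabrb1, Gabra5 turned to 0.56 (FPKM), 0.17 (TPM), 0.0906 (scaled FPKM) and 0.0508 (outside 56 to 62), and Gabrb2 to -0.31 (TPM) and -0.39 (scaled FPKM). With single libraries left out, the ranges that crossed 0 in Low against Control were -0.13 to 0.16 for Gabra2, -0.0499 to 0.52 for Gabrb2 and -0.0693 to 0.0190 for Gabrd, in High against Control -0.15 to 0.0135 for Gabra3 and -0.12 to 0.00854 for Gabra5, and in Low against High -0.13 to 0.0180 for Gabra5. Adding assembled loci to each gene was not run, since those loci repeat the reads of the reference entry. Depth limits could not be set, because the tables hold no counts.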
